A study of Mus musculus with 4 samples.

Results

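The genes described here were 10 members of the bone morphogenetic protein (BMP) and growth differentiation factor (GDF) family, *Bmp1*, *Bmp2*, *Bmp4*, *Bmp5*, *Bmp6*, *Bmp7*, *Gdf5*, *Gdf6*, *Gdf10* and *Gdf11*, out of 32285 genes in the count matrices. They were chosen by gene symbol, and each symbol named a single row. In the GRCm38 annotation *Bmp4* (ENSMUSG00000021835) lies at chr14:46383520-46390669 on the minus strand, *Bmp2* (ENSMUSG00000027358) at chr2:133552159-133562885 on the plus strand, *Bmp5* (ENSMUSG00000032179) at chr9:75775364-75900310 on the plus strand, *Bmp6* (ENSMUSG00000039004) at chr13:38345107-38500302 on the plus strand, *Bmp7* (ENSMUSG00000008999) at chr2:172868012-172940321 on the minus strand and *Gdf11* (ENSMUSG00000025352) at chr10:128882295-128891718 on the minus strand. All 10 are protein-coding, and a UMI was counted to the gene and not to an exon or isoform. UMIs (unique molecular identifiers, each standing for 1 captured transcript) were summed for each gene, library and cell class, and a level is given as UMIs of the gene per 1000000 UMIs of that class (CPM).

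The 4 single-cell RNA-seq libraries came from the tibial muscle of *Nse-Bmp4* mice on the C57BL/6 strain, 6 to 8 weeks old. Muscle was either left intact (Uninjured) or injured with cardiotoxin, a snake toxin that kills muscle fibres, and taken after 1, 3 or 7 days (dpi, days post injury). Each time point was 1 library pooled from 3 muscles, so no difference between time points could be tested, and every interval below is a 95% interval that covers counting error only. All 4 groups carried the transgene, in which a rat neuron-specific enolase (Nse) promoter drives a murine *Bmp4* cDNA ahead of an SV40 polyadenylation signal, and no library without it was analysed here. The matrices hold a single *Bmp4* row. Whether it counts transcripts of the transgene, which end in the SV40 signal, is not known, since the chemistry is not given. Any such UMIs cannot be told apart from those of the endogenous gene. *Eno2*, the mouse gene whose rat promoter the transgene uses, stayed between 2.78 and 4.22 CPM in mesenchymal cells of the 4 libraries.

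The libraries held 12031, 11722, 15160 and 23752 cell barcodes (Uninjured, 1, 3 and 7 dpi) and between 91146335 and 129007669 UMIs, and the median UMIs per barcode were 8629, 5561.5, 4214 and 3083. Of 62665 barcodes, 52853 passed the filters and 47093 were given to 1 of 16 classes by marker genes. The other 5760 stayed unassigned, from 4.27% of kept cells in the Uninjured library to 17.2% at 3 dpi. Any pair of libraries shared 30 to 95 barcode sequences. Mesenchymal cells numbered 8429, 3897, 6553 and 16074, and their median UMIs were 9152, 8027, 5527 and 3300.5. The typical mesenchymal cell carried 7 to 9 of the 10 mesenchymal markers in each library.

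BMPs are secreted dimers of the transforming growth factor beta superfamily. They bind type I and type II serine/threonine kinase receptors, which phosphorylate Smad1, Smad5 and Smad8, and the Id genes and inhibitory Smads are among the direct targets. BMPs were named for their ability to induce ectopic cartilage and bone, and excess BMP signalling in injured muscle gives heterotopic ossification, the bone formation in soft tissue that *Nse-Bmp4* mice model. The members differ in role. *Bmp2* and *Bmp4* form 1 close pair of ligands, and *Bmp5*, *Bmp6* and *Bmp7* form another group. *Gdf5* and *Gdf6* are ligands of developing joints and skeleton. *Gdf10* is a BMP3-like ligand, and *Gdf11* is close to myostatin and acts through Smad2 and Smad3. *Bmp1* is not a ligand of this family despite its name: it is an astacin metalloprotease that cleaves procollagen C-propeptides and the BMP antagonist chordin.

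Mesenchymal cells held most UMIs of every member, and they were also the largest class in each library. Over all 4 libraries, their share of the UMIs of gated cells was 98.4% for *Bmp1*, 98.0% for *Bmp2*, 96.0% for *Bmp4*, 98.8% for *Bmp5*, 95.2% for *Bmp7*, 97.0% for *Gdf6* and 99.3% for *Gdf10*. It was lower for *Bmp6*, at 84.3% (83.0 to 85.5%, Clopper-Pearson), and for *Gdf11*, at 79.3% (77.5 to 81.1%). *Gdf5* had only 50 UMIs in gated cells, 49 of them mesenchymal. Over all genes, mesenchymal cells summed to 79156406, 35650603, 56523897 and 84265649 UMIs in time order. The next largest gated class summed to 2057328, 12276549, 4589705 and 2224842. A high share alone therefore does not show that a gene favours mesenchymal cells. The *Gdf11* share varied with time, from 84.3% in the Uninjured library to 46.0% at 1 dpi, when B cells held 107 of 339 UMIs, and 93.6% at 7 dpi. Class make-up moved as well, with 203 B cells in the Uninjured library and 1343 at 1 dpi. The mesenchymal level of *Gdf11* was not lower at 1 dpi, at 4.38 against 2.58 CPM, and the part of class make-up in its share was not tested.

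*Bmp2* and *Bmp4*, the classic osteoinductive ligands, were both far lower in mesenchymal cells at 7 dpi than in uninjured muscle. *Bmp2* stood at 116 CPM in the Uninjured library (9176 UMIs), 130 at 1 dpi, 41.7 at 3 dpi and 8.82 at 7 dpi (743 UMIs). The 7 dpi level was 13.1-fold below the Uninjured one (12.2 to 14.2), with falls of 3.13-fold from 1 to 3 dpi and 4.73-fold from 3 to 7 dpi. The small rise at 1 dpi, a ratio of 1.12 (1.09 to 1.17), became a log2 ratio of -0.032 when libraries were scaled by median-of-ratios size factors, so its direction depended on the scaling. *Bmp4* stood at 120 CPM (9471 UMIs), 102, 62.0 and 17.3 CPM (1459 UMIs) in the same order. It was 6.91-fold lower at 7 dpi than in the Uninjured library (6.54 to 7.31), and most of that difference lay between 3 and 7 dpi, where it was 3.58-fold lower (3.37 to 3.81). The 1 dpi ratio of 0.856 (0.824 to 0.889) changed direction, to a log2 ratio of 0.079, in cells thinned to an equal 1000 UMIs.

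*Bmp5*, *Bmp6* and *Bmp7* act largely through the type I receptors *Acvr1* and *Bmpr1a* or *Bmpr1b*, and they parted from each other over time. *Bmp7* fell at every step, from 25.0 CPM (1976 UMIs) to 12.1, 4.10 and 1.42 CPM (120 UMIs). Its ratio to the Uninjured library was already 2.06-fold lower at 1 dpi (1.86 to 2.29) and 17.5-fold lower at 7 dpi (14.6 to 21.3). With equal weight for every cell the 7 dpi log2 ratio was -3.49 in place of -4.13, next to -3.58 for *Bmp2*. *Bmp5* likewise went down, with 58.2, 38.5, 18.5 and 6.65 CPM, and ended 8.75-fold lower (8.02 to 9.57). *Bmp6* changed least of these ligands. It had 15.8, 16.7, 8.46 and 7.45 CPM, a 2.12-fold lower level at 7 dpi (1.93 to 2.34), and almost all of the change lay between 1 and 3 dpi, at 1.98-fold.

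The GDF genes did not move as a group. *Gdf10* went from 44.5 CPM (3526 UMIs) in the Uninjured library to 64.1 at 1 dpi, 56.2 at 3 dpi and 21.8 at 7 dpi, so that it was above its uninjured level at 1 and 3 dpi and 2.04-fold below it at 7 dpi (1.93 to 2.16). Its 3 dpi to 1 dpi ratio of 0.877 turned to log2 ratios of 0.36 in thinned cells and 0.40 when every cell had equal weight. *Gdf11* was the only member that was higher at each step than at the one before, with 2.58, 4.38, 6.10 and 10.2 CPM (204, 156, 345 and 859 UMIs), and it ended 3.96-fold higher (3.39 to 4.63). Its first step was smaller in thinned cells, with a log2 ratio of 0.18 in place of 0.76. *Gdf6* was sparse and peaked early, with 90, 114, 114 and 32 UMIs or 1.14, 3.20, 2.02 and 0.380 CPM, 2.81-fold higher at 1 dpi (2.11 to 3.75) and then 5.31-fold lower at 7 than at 3 dpi (3.56 to 8.13). *Gdf5*, which marks cells of the joint interzone in development, had 7, 0, 3 and 39 UMIs, a 5.23-fold higher level at 7 dpi than in the Uninjured library (2.31 to 13.9). The protease gene *Bmp1* kept 325, 273, 305 and 254 CPM, and its 7 dpi to Uninjured ratio of 0.781 (0.767 to 0.796) was the smallest change of all members in that comparison.

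**Figure D1:**
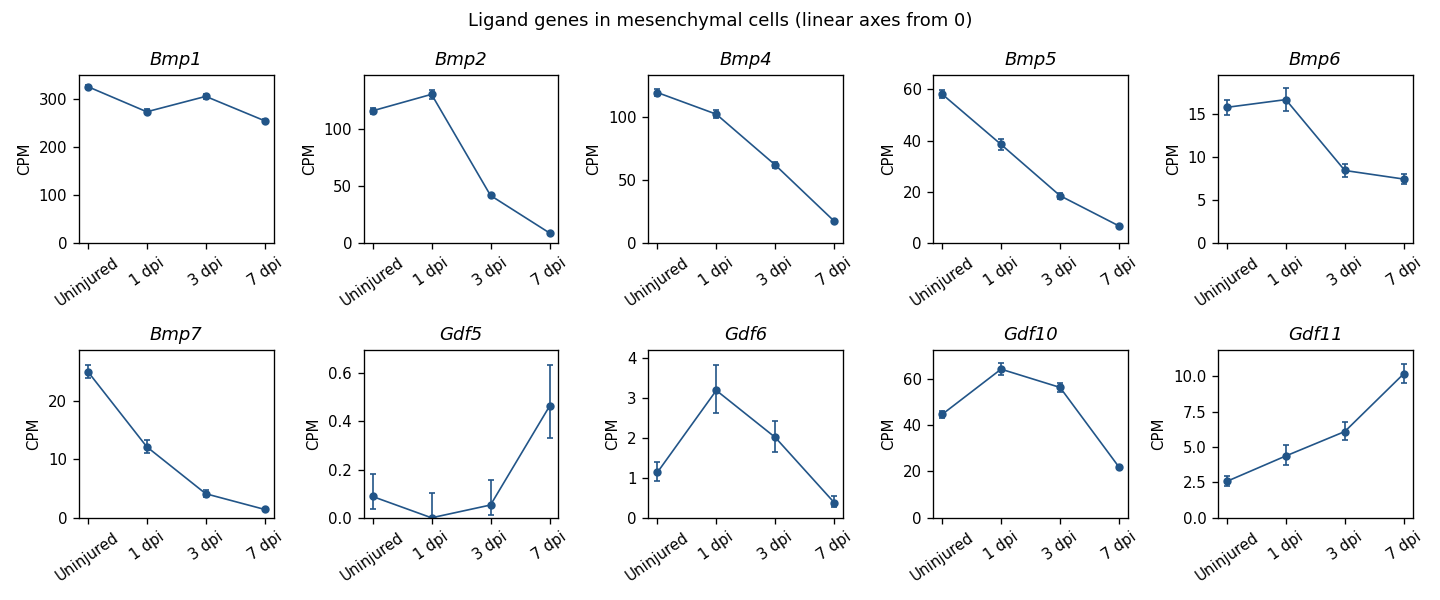
CPM of each member in mesenchymal cells (vertical axis, linear from 0 and scaled for each gene) in the 4 libraries (horizontal axis), with exact 95% Poisson intervals as bars. *Bmp2*, *Bmp4*, *Bmp5* and *Bmp7* end at 8.82, 17.3, 6.65 and 1.42 CPM, their lowest values, whereas *Gdf11* and *Gdf5* have their highest values at 7 dpi.

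A gene was called in a comparison when it had at least 20 UMIs over both libraries and differed at least 2-fold. Against the Uninjured library, 7 of 10 members tested were lower and 2 were higher at 7 dpi, where 11.8% of all 16517 genes tested were lower and 20.4% were higher. Of the lower ones, *Bmp6* did not reach a 2-fold difference in thinned cells, nor *Gdf10* outside the chondrocyte gate. The median log2 ratio was -1.33 over the members and 0.09 over all genes tested. Between 3 and 7 dpi, 6 of 10 members were lower, against 8.6% of all genes, and *Gdf5* was higher, against 13.7%, with medians of -1.42 and -0.06. From 1 to 3 dpi, 3 of 9 were lower (*Bmp2*, *Bmp5* and *Bmp7*), against 6.2%, and none was higher, against 7.23%, with medians of -0.72 and -0.08. Of these 3, *Bmp5* and *Bmp7* did not reach a 2-fold difference in thinned cells (log2 ratios of -0.76 and -0.72) or with equal weight for every cell (-0.77 and -0.84). Between the Uninjured library and 1 dpi, 1 of 9 was lower (*Bmp7*, background 5.66%) and 1 was higher (*Gdf6*, background 10.2%), with medians of 0.08 and 0.17, and *Bmp7* was just under 2-fold in thinned cells (log2 ratio -0.98). The members called lower thus lay mostly in the later intervals. The comparisons share libraries, and with 1 library per group no test of the count was made.

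**Figure D2:**
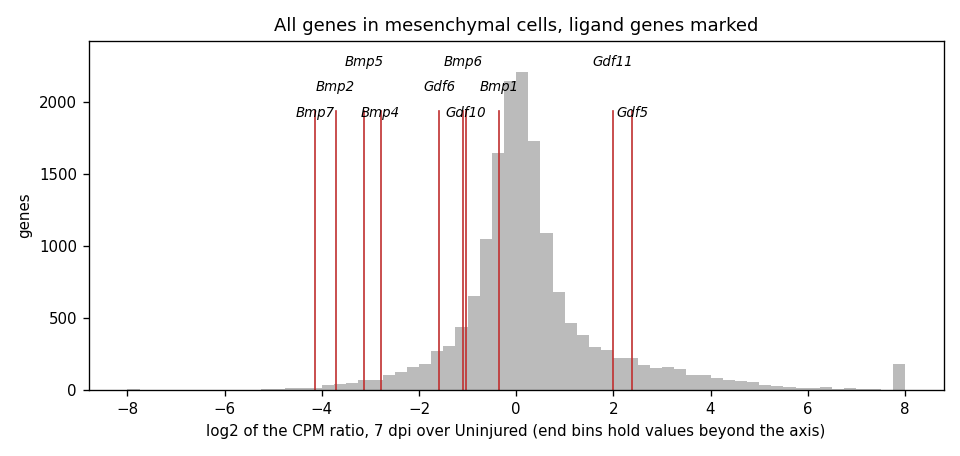
Histogram of the log2 ratio of CPM between 7 dpi and Uninjured mesenchymal cells (horizontal axis) for 16517 genes (vertical axis, genes per bin), with a red line at each member. 7 members lie at or below a 2-fold decrease, *Bmp1* lies at -0.36, and *Gdf11* and *Gdf5* lie on the right at 1.98 and 2.39.

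Shares of cells with a UMI were also compared after each cell was thinned to 1000 UMIs. At that depth the share largely follows the CPM. Neither it nor a class sum therefore separates fewer cells with a transcript from fewer transcripts in each cell. The share of mesenchymal cells with a *Bmp4* UMI was then 11.2%, 11.2%, 8.78% and 1.84% in time order, against 49.8%, 43.7%, 30.9% and 6.66% before thinning. For NK and T cells, which should lack *Bmp4*, the thinned shares were 0%, 0.214%, 0.0757% and 0% (before thinning their median depths were 3603, 4428, 2797.5 and 2163 UMIs). Mesenchymal cells thus lay above that background in every library, 7 dpi included. The thinned shares of *Bmp2* were 9.78%, 11.9%, 5.63% and 0.796%, those of *Bmp5* were 5.17%, 3.73%, 2.37% and 0.637%, and those of *Bmp7* were 2.42%, 1.24%, 0.720% and 0.159%. *Gdf10* had 3.38%, 4.66%, 5.74% and 1.69%, which put its highest share at 3 dpi and its highest CPM at 1 dpi. Thinning left out 0, 11, 301 and 1005 mesenchymal cells with fewer than 1000 UMIs.

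*Bmp4* and *Bmp5* fell together, and both were higher in the *Smoc2* *Col15a1* than in the *Pi16* fibroblast gate (given further on). Their promoter windows are shown with that of *Gdf11*, which moved the other way. Each runs from 250 bases before to 50 bases after the RefSeq transcription start (GRCm38.p6), 5′ to 3′ on the gene's strand, with matches to TATAAA and CCAAT in capitals. The *Bmp4* window is chr14:46390620-46390919 on the minus strand, the *Bmp5* window chr9:75775115-75775414 on the plus strand, and the *Gdf11* window chr10:128891669-128891968 on the minus strand.
Bmp4: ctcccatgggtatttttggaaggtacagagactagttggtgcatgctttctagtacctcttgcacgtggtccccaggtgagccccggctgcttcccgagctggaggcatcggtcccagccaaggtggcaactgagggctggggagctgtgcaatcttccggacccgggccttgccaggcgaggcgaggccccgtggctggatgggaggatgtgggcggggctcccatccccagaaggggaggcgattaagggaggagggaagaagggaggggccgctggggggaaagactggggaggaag
Bmp5: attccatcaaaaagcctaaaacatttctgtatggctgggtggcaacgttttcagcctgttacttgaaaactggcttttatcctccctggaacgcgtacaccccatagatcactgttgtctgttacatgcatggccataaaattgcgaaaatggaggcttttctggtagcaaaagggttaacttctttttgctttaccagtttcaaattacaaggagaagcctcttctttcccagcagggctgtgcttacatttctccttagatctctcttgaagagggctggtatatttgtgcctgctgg
Gdf11: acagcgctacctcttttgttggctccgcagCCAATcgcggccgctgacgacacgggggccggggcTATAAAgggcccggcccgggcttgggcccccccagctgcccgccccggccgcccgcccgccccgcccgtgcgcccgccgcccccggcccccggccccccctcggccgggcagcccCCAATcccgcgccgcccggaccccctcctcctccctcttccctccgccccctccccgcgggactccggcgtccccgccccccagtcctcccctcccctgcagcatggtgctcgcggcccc
The *Gdf11* window held TATAAA at 185 bases and CCAAT at 220 and 70 bases upstream of the start, all on the gene's strand. Neither motif, nor GGCGCC, was found on either strand of the *Bmp4* and *Bmp5* windows. TATAAA occurred in 13.6% of 32851 promoters, CCAAT in 37.4% and GGCGCC in 11.9%, counting both strands. GC content was 64% for *Bmp4*, 43.3% for *Bmp5* and 80.7% for *Gdf11*, against a median of 52.7% over all promoters. The promoter table held 5 of the 10 members. Of these, *Bmp6* had no match and *Gdf10* had GGCGCC 16 bases after the start. The native *Bmp4* promoter is not the one that drives the transgene.

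The fibroblasts of uninjured muscle mostly passed 1 of a pair of gates, and the ligands were divided between them. The *Pi16* gate (a *Pi16* UMI and at least 3 of 6 markers such as *Dpp4* and *Sema3c*, the genes of adventitial fibroblasts) held 2765, 933, 1117 and 634 cells. The *Smoc2* *Col15a1* gate (a UMI of each, the genes of interstitial fibroblasts) held 3399, 1421, 1748 and 1091 cells. Both gates need single UMIs of their marker genes, so the number of cells passing can depend on depth, and that part was not tested. Cells that passed several gates were set aside, so the division between the gates does not cover all 8429 Uninjured mesenchymal cells. *Bmp4* and *Bmp5* were higher in the *Smoc2* *Col15a1* gate in all 4 libraries. *Bmp4* had 191, 174, 137 and 63.8 CPM there against 57.9, 50.4, 56.0 and 28.1 in the *Pi16* gate, a ratio that went from 3.30 (3.12 to 3.50) in the Uninjured library to 2.27 (1.86 to 2.79) at 7 dpi. *Bmp5* had 117, 71.4, 37.5 and 21.0 CPM against 4.55, 5.69, 5.62 and 2.32, and a ratio of 25.6 in the Uninjured library (21.3 to 31.0). It was not confined to the *Smoc2* *Col15a1* gate. Mesenchymal cells that passed no gate had 24.4, 35.7, 22.3 and 6.15 CPM of *Bmp5*. The tenocyte gate had 43.2 CPM at 3 dpi (94 cells, 36 UMIs), and 22 and 17 UMIs in 47 Uninjured and 29 1 dpi cells. *Gdf10* followed the same side at smaller ratios, 1.76, 1.37, 1.59 and 2.10.

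*Bmp6* and *Bmp7* had the opposite preference. *Bmp6* had 30.1, 36.9, 19.3 and 19.0 CPM in the *Pi16* gate against 7.11, 8.69, 5.21 and 4.79 in the *Smoc2* *Col15a1* gate, and its ratio stayed between 3.71 and 4.25 in all 4 libraries. *Bmp7* had 56.3, 28.5, 18.7 and 4.43 CPM in the *Pi16* gate against 8.97, 9.13, 3.68 and 7.01. It was thus 6.28-fold higher in the *Pi16* gate of uninjured muscle (5.50 to 7.19), while at 7 dpi the ratio of 0.633 had an interval that held 1 (0.355 to 1.10, on 21 and 41 UMIs). *Bmp2* changed sides. In the Uninjured library it was 1.92-fold higher in the *Pi16* gate (175 against 91.0 CPM, interval 1.83 to 2.01), and at 1 dpi it was higher in the *Smoc2* *Col15a1* gate (169 against 139 CPM, a ratio of 1.22, interval 1.13 to 1.31). The *Smoc2* *Col15a1* gate had gained *Bmp2* at 1 dpi, 1.85-fold over its uninjured level (1.75 to 1.97), when the *Pi16* gate stood at 0.793 of its own (0.742 to 0.846). By 7 dpi *Bmp2* was again higher in the *Pi16* gate, at 25.8 against 16.9 CPM.

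**Figure D3:**
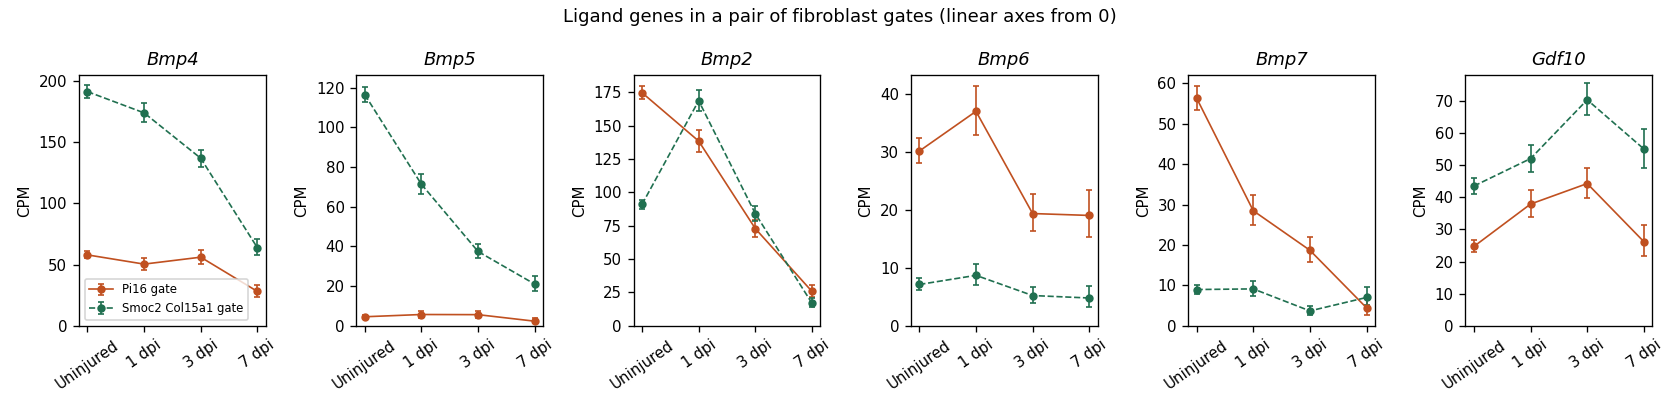
CPM of 6 members (vertical axes, linear from 0) in the *Pi16* gate (orange, solid) and the *Smoc2* *Col15a1* gate (green, dashed) of the 4 libraries (horizontal axis), with exact 95% Poisson intervals. *Bmp4* and *Bmp5* lie higher in the green gate throughout, *Bmp6* in the orange gate throughout, and the *Bmp2* lines cross between Uninjured (175 and 91.0 CPM) and 1 dpi (139 and 169 CPM).

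The falls seen over all mesenchymal cells were partly smaller inside a gate. Within the *Smoc2* *Col15a1* gate, the 7 dpi level was 3.00-fold below the Uninjured one for *Bmp4* (2.70 to 3.34), 5.54-fold for *Bmp5* (4.63 to 6.69) and 5.38-fold for *Bmp2* (4.40 to 6.64). Within the *Pi16* gate, *Bmp7* was 12.7-fold lower (8.28 to 20.6), *Bmp2* 6.78-fold lower (5.67 to 8.19) and *Bmp4* 2.06-fold lower (1.73 to 2.48). *Bmp2* and *Bmp4* were therefore lower at 7 dpi in both gates. *Bmp7* was not detectably lower in the *Smoc2* *Col15a1* gate, at a ratio of 0.781 (0.548 to 1.09). *Gdf10* did not fall in either gate: its ratio was 1.27 in the *Smoc2* *Col15a1* gate (1.12 to 1.43) and 1.06 in the *Pi16* gate (0.868 to 1.29), against 0.490 over all mesenchymal cells. *Gdf11* was higher in both, 3.21-fold (2.26 to 4.51) and 2.99-fold (1.83 to 4.78). The rest of the *Gdf10* signal lay in other mesenchymal cells, among them the cells that passed several gates, which were set aside. Of the 3526 Uninjured *Gdf10* UMIs, cells that passed no gate held 509 and the *C7* gate 116. Mesenchymal cells that passed no gate had 200 CPM of *Gdf10* in the Uninjured library and 30.1 at 7 dpi, when their number had gone from 329 to 6198. The *C7* gate (102, 48 and 68 cells up to 3 dpi) had 118 CPM in the Uninjured library and 208 at 3 dpi. Its 1 dpi value rests on 48 cells and 99 UMIs.

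In other gates of injured muscle, *Bmp2* and *Bmp4* were lower than in the *Smoc2* *Col15a1* gate of the same library. The *Cxcl5* *Prg4* gate at 3 dpi, 499 injury fibroblasts, had 21.1 CPM of *Bmp4* and 8.22 CPM of *Bmp2*. The *Lrrc15* *Tnn* gate at 7 dpi, 1022 cells, had 9.28 CPM of *Bmp4* and 3.05 CPM of *Bmp2*, together with 13.5 CPM of *Gdf11*. The tenocyte gate at 7 dpi, 1146 cells with genes such as *Tnmd* and *Thbs4*, had 13.1 CPM of *Bmp4*, 10.2 of *Bmp5* and 11.3 of *Gdf11*.

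The chondrocyte gate was passed by 4399 cells, all at 7 dpi (at least 6 of 11 cartilage genes such as *Col2a1* and *Acan*). *Bmp6* was higher in them than in the other mesenchymal cells of that library, at 13.2 against 5.08 CPM, a ratio of 2.61 (2.22 to 3.06). *Bmp4* was lower, at 8.30 against 21.0 CPM, a ratio of 0.395 (0.339 to 0.459). *Bmp2* differed little over the whole gate, at 9.24 against 8.64 CPM (1.07, 0.910 to 1.25). A split by *Col10a1*, the collagen of hypertrophic cartilage, separated the ligands within the gate. In 1237 cells with a *Col10a1* UMI, *Bmp6* stood at 28.7 CPM against 7.60 in 3162 cells without, a ratio of 3.78 (3.01 to 4.75). *Bmp2* stood at 19.8 against 5.36 CPM, a ratio of 3.70 (2.82 to 4.87). *Gdf10* was lower in the cells with *Col10a1*, at 11.1 against 18.9 CPM (0.590, 0.452 to 0.762), and *Bmp1* was level, at 1.02 (0.958 to 1.08). Median depth was 3823 and 3801.5 UMIs in these groups, so depth hardly differed. Outside the chondrocyte gate, *Bmp6* was lower at 7 than at 3 dpi, with 5.08 against 8.46 CPM and a log2 ratio of -0.73 in place of -0.18 over all mesenchymal cells. Of the 39 *Gdf5* UMIs at 7 dpi, 18 were in the chondrocyte gate.

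Cycling mesenchymal cells, with at least 3 of 6 proliferation genes such as *Mki67* and *Top2a*, numbered 87, 101, 761 and 2098. At 3 dpi most ligand genes were lower in them than in cells with none of these genes. *Bmp4* stood at 26.0 against 87.8 CPM (a ratio of 0.296, 0.265 to 0.330), *Bmp2* at 12.8 against 62.0 (0.207, 0.177 to 0.240), *Bmp7* at 0.689 against 6.37 (0.108, 0.0511 to 0.203) and *Gdf10* at 14.0 against 82.8 (0.169, 0.146 to 0.195). *Gdf11* was higher in the cycling cells, at 8.81 against 4.59 CPM (1.92, 1.50 to 2.46), and *Bmp6* was not detectably different (0.853, 0.678 to 1.07). At 1 dpi *Bmp2* and *Bmp4* were again lower in the cycling cells, with ratios of 0.186 and 0.156, while *Gdf10* was not detectably different (1.09, 0.911 to 1.29) and *Bmp6* was higher (1.46, 1.06 to 1.97). At 7 dpi the gap was narrower for *Bmp2* (0.702, 0.564 to 0.867) and *Bmp4* (0.705, 0.602 to 0.822), whereas *Bmp7* kept a ratio of 0.172 (0.0546 to 0.416) and *Gdf10* one of 0.562 (0.482 to 0.652). Cycling cells were deeper at 3 dpi, with a median of 18813 against 4513.5 UMIs, and the part of depth in these ratios was not tested.

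Outside the mesenchyme, the members differed in the classes that carried them. The class with the highest CPM in any library, among classes of at least 50 cells, was mesenchymal for *Bmp1*, *Bmp2*, *Bmp5* and *Gdf10*, satellite cell for *Bmp4* and *Gdf6*, endothelial for *Bmp6*, Schwann for *Bmp7* and mural for *Gdf11* and *Gdf5*. Of these, the *Gdf6* value rested on 4 UMIs and the *Gdf5* value on 1, and the *Gdf11* class became B cells under a stricter gate and in thinned cells. The *Bmp7* class became mesenchymal in thinned cells and with equal weight for every cell, and the Uninjured ratio of Schwann to mesenchymal cells, 1.14, had an interval that held 1 (0.736 to 1.69). The *Bmp5* class became mural in thinned cells.

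**Figure D4:**
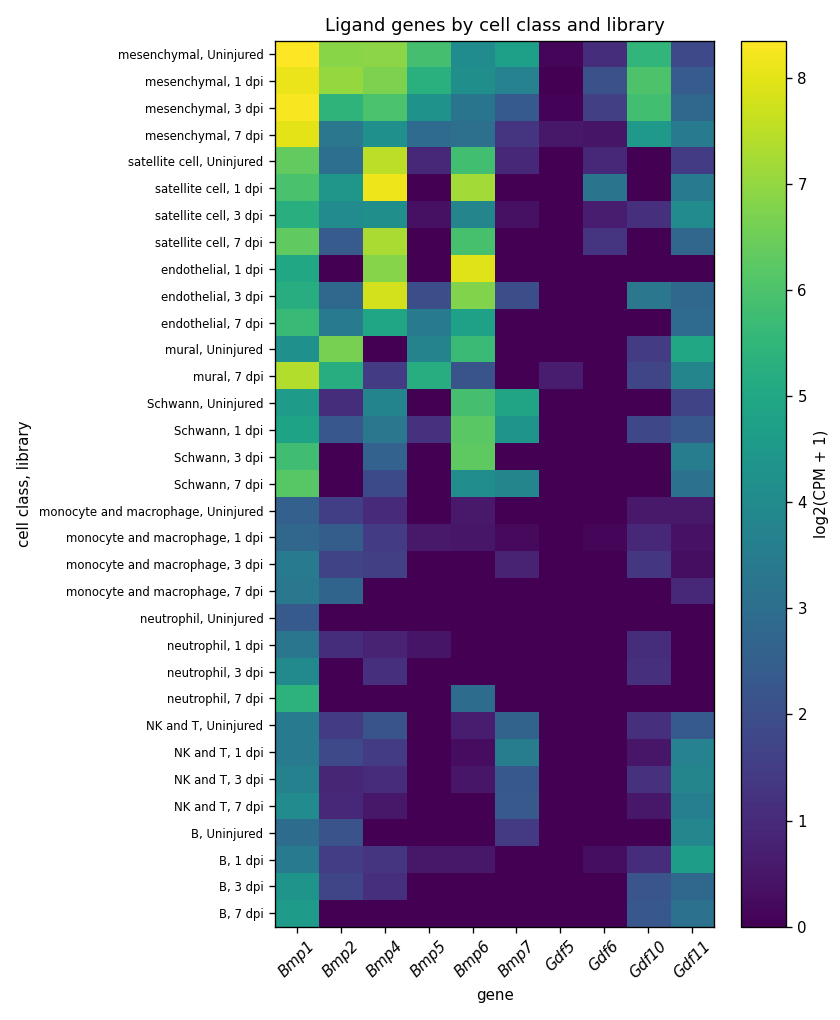
Level of each member (columns) in cell classes with at least 50 cells in a library (rows, the main classes), coloured by log2(CPM + 1), to be read within a column. The *Bmp4* column is bright in satellite, endothelial and mesenchymal rows. It is dimmer in satellite cells at 3 dpi (16.9 CPM) and in endothelial and mesenchymal cells at 7 dpi (29.5 and 17.3 CPM). *Bmp6* reaches higher values in satellite, endothelial, Schwann and mural rows than in any mesenchymal row. *Gdf10* is bright almost only in the mesenchymal rows and *Bmp5* in the mesenchymal and mural rows.

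The satellite cell class, named for the muscle stem cells (166, 92, 250 and 133 cells), needed at least 3 of 6 markers such as *Pax7*, *Myf5* and *Myod1*. A *Pax7* UMI was not required, so not every cell in it was *Pax7*-positive. Satellite cells carried *Bmp4* and *Bmp6* at levels above mesenchymal cells in uninjured muscle and did not share the mesenchymal time course. *Bmp4* stood at 182 CPM (202 UMIs) in the Uninjured library, 280 (137 UMIs) at 1 dpi, 16.9 (56 UMIs) at 3 dpi and 155 (108 UMIs) at 7 dpi. Relative to mesenchymal cells this was 1.52-fold (1.32 to 1.75), 2.74-fold (2.29 to 3.25), 0.273-fold (0.206 to 0.356) and 8.97-fold (7.31 to 10.9). *Bmp6* followed with 55.9, 145, 13.0 and 59.0 CPM, above mesenchymal cells by 3.54-, 8.69-, 1.54- and 7.91-fold. At 3 dpi the class was split by cycling state. There, 131 satellite cells passed the cycling gate and had 13 *Bmp4* UMIs and 1 *Bmp6* UMI, or 4.99 and 0.384 CPM. The 82 satellite cells with none of the cycling genes had 118 CPM of *Bmp4* (40 UMIs) and 112 CPM of *Bmp6* (38 UMIs), ratios of 0.0421 (0.0207 to 0.0804) for *Bmp4* and 0.00341 for *Bmp6*. Those cells had a median of 3065 UMIs, against 19828 in the cycling ones.

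Among 21 cycling satellite cells at 7 dpi the *Bmp4* ratio was 0.370 (0.193 to 0.658, on 14 UMIs). Other members were scarce in this class. *Bmp5*, *Bmp7* and *Gdf10*, each plentiful in mesenchymal cells, had 0 to 4 UMIs in satellite cells of every library, although a satellite cell carried a median of 3 of the 10 mesenchymal markers. *Bmp2* had 8, 10, 51 and 3 UMIs and *Gdf11* had 2, 5, 51 and 4 UMIs, both with 44 of the 51 at 3 dpi in cycling cells. Per UMI these cells did not differ detectably from those without cycling genes, with ratios of 1.90 for *Bmp2* (0.610 to 9.58) and 1.43 for *Gdf11* (0.519 to 5.47).

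**Figure D5:**
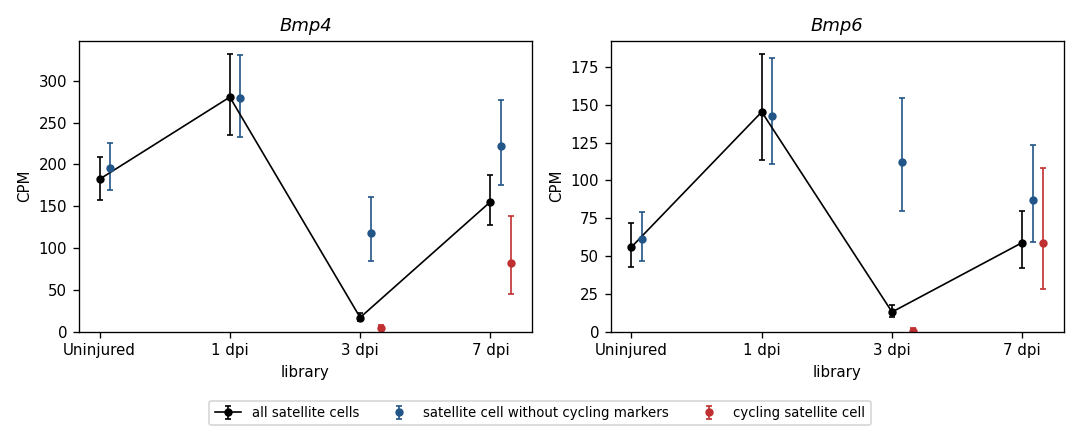
CPM of *Bmp4* and *Bmp6* (vertical axes, linear from 0) in satellite cells of the 4 libraries (horizontal axis), for all cells (black), cells without cycling markers (blue) and cycling cells (red, 3 and 7 dpi only), with exact 95% Poisson intervals. At 3 dpi the blue points lie at 118 and 112 CPM and the red points at 4.99 and 0.384 CPM.

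Blood vessel endothelial cells (20, 64, 112 and 68 cells) were a source of *Bmp6*, a ligand by which liver endothelium regulates hepcidin, and of *Bmp4*. Their *Bmp6* level was 244 CPM (79 UMIs) at 1 dpi, 108 (36 UMIs) at 3 dpi and 26.2 (8 UMIs) at 7 dpi, with 6 UMIs in the 20 Uninjured cells. At 1 dpi this was 14.6-fold above mesenchymal cells (11.4 to 18.5), and at 3 dpi 12.7-fold (8.82 to 17.9). *Bmp4* stood at 114, 219 and 29.5 CPM at 1, 3 and 7 dpi. In order of level at 1 dpi, satellite cells (280 CPM) came before endothelial (114) and mesenchymal cells (102), and the last pair did not differ beyond counting error (a ratio of 1.12, 0.784 to 1.54). At 3 dpi endothelial cells stood 3.53-fold above mesenchymal cells (2.76 to 4.45), and at 7 dpi the ratio of 1.70 again had an interval that held 1 (0.776 to 3.24).

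Mural cells, the pericytes and smooth muscle of vessels, passed 50 cells in the Uninjured (73) and 7 dpi (196) libraries. They had 99.5 CPM of *Bmp2* in uninjured muscle (57 UMIs) and 35.6 at 7 dpi, with *Bmp6* going from 50.6 to 3.50 CPM and *Gdf11* from 31.4 to 12.8 CPM. *Bmp4* had 0 and 3 UMIs in them, so mural cells carried *Bmp2* with little *Bmp4*. *Bmp1* and *Bmp5* went the other way, from 17.4 to 166 CPM and from 12.2 to 36.1 CPM, and over the same libraries the median number of mesenchymal markers in a mural cell went from 2 to 5 of 10. The part of mesenchymal RNA in those values was not tested. The median number of mural markers went from 3 of 7, the minimum of the gate, to 6 of 7. Whether the mural cells of these libraries were alike was not tested.

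Schwann cells, the glia of peripheral nerve (228, 183, 158 and 138 cells), carried *Bmp6* and *Bmp7*. *Bmp6* had 58.1, 73.1, 77.3 and 15.9 CPM, and *Bmp7* had 25, 15, 0 and 5 UMIs, or 28.5, 18.9, 0 and 13.3 CPM. *Bmp4* was low in this glial class, with 11, 7, 2 and 1 UMIs in time order. The transgene carries a promoter named for neurons, and its activity was not tested here. Neurons themselves were not among the 16 classes.

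Lymphocytes held *Bmp7* and *Gdf11*. NK and T cells (424, 937, 1378 and 831 cells) had 5.29, 10.5, 3.92 and 4.05 CPM of *Bmp7* (9, 48, 18 and 9 UMIs), whereas B cells had 1 UMI in the Uninjured library and 0 in the other 3. Within the class at 1 dpi, 419 T cells had 12.4 CPM of *Bmp7* against 2.79 in 327 NK cells, a ratio of 4.46 (1.68 to 14.9). *Bmp5*, present in mesenchymal cells of the same libraries, had 0 UMIs in NK and T cells of every library. *Bmp1*, more plentiful in mesenchymal cells, had 9.99, 9.58, 11.8 and 15.3 CPM in NK and T cells. In B cells *Bmp1* had 6.76, 10.1, 19.0 and 22.9 CPM. The part of mesenchymal RNA in the lymphocyte values was not tested. *Gdf11* had 4.11, 12.0, 13.1 and 11.2 CPM in NK and T cells, and at 3 dpi it was 6.05-fold higher in the T than in the NK gate (25.2 against 4.16 CPM, 2.84 to 14.3). In B cells (203, 1343, 377 and 170) *Gdf11* stood at 13.5, 24.7, 5.95 and 7.64 CPM. At 1 dpi it was 2.08-fold higher in 663 B cells without a UMI of *Vpreb3*, a gene of B cell precursors, than in 680 cells with one (34.9 against 16.8 CPM, 1.39 to 3.15).

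Other genes of the BMP pathway were read in the same mesenchymal cells. Of 14 antagonists tested between the Uninjured library and 7 dpi, 5 were at least 2-fold higher and 2 lower. *Grem1*, a secreted inhibitor of *Bmp2*, *Bmp4* and *Bmp7*, went from 2 UMIs (0.0253 CPM) to 574 (6.81 CPM), and *Bambi*, a decoy receptor, went from 18.3 to 43.8 CPM. *Chrd*, the antagonist that *Bmp1* cleaves, had 27.7, 24.4, 11.3 and 5.97 CPM, and *Fst*, which binds activins and *Gdf11*, had 316, 225, 172 and 112 CPM. *Bmper*, an extracellular modulator of BMP4, had 66.1, 135, 135 and 33.9 CPM. Of 10 receptors 1 was higher and 4 were lower, with *Bmpr1b* at 0.341 and 4.77 CPM in the Uninjured and 7 dpi libraries and *Tgfbr3* at 179 and 49.7 CPM. The BMP receptor genes *Acvr1* (23.9 and 38.2 CPM), *Bmpr1a* (59.5 and 57.0) and *Bmpr2* (70.4 and 59.5) did not reach a 2-fold difference. Of 9 response genes tested, 3 were higher and 1 was lower. *Id1* had 16.8, 15.7, 25.1 and 37.5 CPM and *Dlx5* went from 1.39 to 18.7 CPM, while *Msx1* went from 67.7 to 12.0 CPM and *Id3* had 514, 300, 540 and 472 CPM. The shares of all genes were again 20.4% higher and 11.8% lower. Counts from the Uninjured library to 1 dpi were 3 antagonists higher and none lower, and no receptor or response gene in either direction, against 10.2% of all genes higher and 5.66% lower.

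The pattern of each member over classes and time was set beside that of every other gene, over 37 sums of a class in a library and 12017 genes, as a description by Pearson correlation of log2(CPM + 5). Of these 37 sums 4 were mesenchymal, and all points of a library share its depth. The nearest genes were *Fbn1* (0.953), *Col5a2* and *Mmp2* for *Bmp1* and *Dpep1* (0.942), *Pdgfra* and *Podn* for *Gdf10*. *Bmp5* lay nearest *Twist2* (0.956), *Agtr1a* and *Cygb*, *Bmp2* nearest *Adcyap1r1* (0.915), *Col4a5* and *Tbx15*, and *Bmp4* nearest *Arhgap28* (0.920), *Zhx3* and *Ramp2*. *Bmp6* lay nearest *Tspan7* (0.926), *3222401L13Rik* and *Nr3c2*, and *Gdf6* nearest *Cbs* (0.916), *Kcnt2* and *Gm17167*. *Bmp7* and *Gdf11* had no neighbour as near, with *Fez1* (0.791), *Prss12* and *Kif13b* for *Bmp7* and *Cobll1* (0.772), *Sesn3* and *Setbp1* for *Gdf11*. *Fbn1*, *Twist2* and *Pdgfra* are themselves markers of the mesenchymal gate.

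Ligands could also be compared within single cells. In thinned mesenchymal cells of the Uninjured library, *Bmp5* was found in 7.43% of 942 cells with a *Bmp4* UMI (5.84 to 9.30%) and in 4.89% of 7487 cells without one (4.41 to 5.40%). It was found in 2.79% of 824 cells with a *Bmp2* UMI (1.78 to 4.16%) and in 5.43% of 7605 cells without (4.93 to 5.96%). *Bmp2* did not follow *Bmp4*, at 10.1% of cells with a *Bmp4* UMI (8.24 to 12.2%) and 9.74% of cells without (9.07 to 10.4%). In the Uninjured library *Bmp5* was thus met more often beside *Bmp4* and less often beside *Bmp2*, and those intervals did not overlap. In the other 3 libraries the order for *Bmp2* was the other way, but the intervals with and without *Bmp2* overlapped in each. *Bmp5* was found in 5.21%, 3.98% and 1.67% of cells with a *Bmp2* UMI at 1, 3 and 7 dpi. Without a *Bmp2* UMI the shares were 3.53%, 2.27% and 0.629%. The 1.67% at 7 dpi stood for 2 of 120 cells. Beside *Bmp4* the share was 4.83%, 4.19% and 1.44%, against 3.59%, 2.19% and 0.622% without, and these intervals overlapped at 1 and 7 dpi. Cells of 1 library are not replicates, so these shares describe single libraries.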

How the data were processed

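UMI counts per gene and cell barcode were used as deposited, 1 matrix per library. Per the labels, the authors made these counts with Cell Ranger 5.0.0 and STAR, and the protocol names down-sampling of reads across samples without stating whether the deposited matrices precede it. The submitters' processing notes name Seurat 3.1.1 and mm10. Chemistry and annotation release are not given in the sources used here.

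The members and marker lists were chosen with earlier results of these data known. Cells were kept within 2 SD of the mean log10 UMI and gene number and at 10% mitochondrial UMIs or less, and the 7.5% of barcodes with the highest Scrublet score (scanpy 1.11.5, exact neighbours) were removed in place of DoubletFinder. The study states the SD limit and not its scale. A cell entered a class when at least 3 markers were detected and their share exceeded that of the next class by 0.2 (chondrocyte markers counted for the mesenchymal class).

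UMIs were summed per class and library and divided by all UMIs of those cells (CPM). Intervals are exact: Poisson for a sum, Clopper-Pearson for a share, conditional binomial for a ratio (scipy 1.17.1), at the 95% level. Amplification is removed by UMIs, but variation between mice is not covered. Apart from these intervals, a fixed floor took a count of 0 to allow up to 3 UMIs. The computation of the interval was checked on simulated counts for 1 dpi against Uninjured. These were drawn as Poisson counts, the form that the interval assumes, so the check does not cover further spread between real cells. Over 14263 of 14463 genes without a change the interval held the true ratio for 95.7%. Over 46, 53, 50 and 51 genes with simulated ratios of 0.25, 0.5, 2 and 4 it did so for 93.5%, 94.3%, 98% and 94.1%. Named genes were the members, fixed pathway lists, class markers and, for members with at least 200 UMIs, the 3 genes of nearest pattern among genes that reached 20 CPM. Leiden clusters (igraph 0.11.9, 2000 variable genes without the 2 members among them, 30 components, 15 neighbours) gave 26 clusters, and their majority class matched that of 97.5% of gated cells. Alternatives changed the cell filters, doublet removal, gate, scaling and minimum of 20 UMIs.

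Gene positions are from the annotation of GRCm38 given for this work. Promoter sequences are from RefSeq (GRCm38.p6), and motif positions count from the transcription start.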

Additional observations from a re-analysis of the deposited data

Results flagged for a closer look

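Between consecutive time points, a member moved in opposite directions in mesenchymal cells and in another class of at least 50 cells in 7 instances. In each, both counting intervals left out no change. None of these differences was tested, since each group was 1 library. They are given as the log2 ratio of the other class minus that of mesenchymal cells.

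*Bmp4* gave 3 of them. From the Uninjured library to 1 dpi it rose in satellite cells (log2 ratio 0.62) and fell in mesenchymal cells (-0.22), a difference of 0.85, and the mesenchymal direction was lost in thinned cells. From 3 to 7 dpi it rose in satellite cells (3.20) and fell in mesenchymal cells (-1.84), a difference of 5.04. Most UMIs of the 3 dpi class were from cycling cells (4.99 CPM of *Bmp4*), and satellite cells without cycling markers had 118 and 222 CPM at 3 and 7 dpi. From 1 to 3 dpi it rose in endothelial cells (0.94) against -0.72 in mesenchymal cells, a difference of 1.66. *Bmp6* from 3 to 7 dpi had 2.18 in satellite cells and -0.18 in mesenchymal cells, a difference of 2.36. Without cycling markers, satellite cells had 112 and 87.2 CPM of *Bmp6* at 3 and 7 dpi, so the later level was not the higher one in them. *Bmp1*, the procollagen protease gene, differed in satellite cells by -0.92 from 1 to 3 dpi (-0.76 against 0.16) and by 1.36 from 3 to 7 dpi (1.10 against -0.26). *Gdf11* from 1 to 3 dpi fell in B cells (-2.05) and rose in mesenchymal cells (0.48), a difference of -2.53. Over the same interval the number of B cells went from 1343 to 377 and their *Gdf11* UMIs from 107 to 5. The comparison of 7 dpi with the Uninjured library was not part of this count, and it also held opposite directions. In mural cells *Bmp1* and *Bmp5* rose (log2 ratios 3.25 and 1.56) and *Gdf11* fell (-1.29). *Bmp1* also rose in Schwann cells (1.65). Mesenchymal cells had -0.36 for *Bmp1*, -3.13 for *Bmp5* and 1.98 for *Gdf11*.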

How the results depend on the processing

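No paired analysis was possible because each time point was 1 library, and for the same reason no library could be left out. Leaving doublets in, or asking for 4 markers, kept all 38 member ratios within their counting intervals, and Leiden classes kept 36 of 38. Without cell filters, 29 of 38 were kept, and likewise 29 outside the chondrocyte gate. Median-of-ratios size factors kept 27, SD limits on linear counts 26 and equal weight for every cell 18 of 38. Thinning to 1000 UMIs kept 14 of 36 and turned the direction of *Bmp4* from the Uninjured library to 1 dpi (log2 ratio 0.079) and of *Gdf10* from 1 to 3 dpi (0.36). Equal weight for every cell also turned *Gdf10* there (0.40), and median-of-ratios size factors turned *Bmp2* from the Uninjured library to 1 dpi (-0.032). Those factors, per total UMI and relative to the Uninjured library, were 1.15, 1.10 and 1.06 at 1, 3 and 7 dpi. The cause of these turns was not tested.

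Counts of members called moved as follows. Lower at 1 dpi than in the Uninjured library: 0 with SD limits on linear counts, in thinned cells and with equal weights, and 2 with a minimum of 1 UMI, in place of 1. Lower at 3 than at 1 dpi: 1 in thinned cells and with equal weights, in place of 3, with the values of *Bmp5* and *Bmp7* given above. Higher at 3 than at 1 dpi: 1 with a minimum of 1 UMI, in place of 0. Higher at 7 than at 3 dpi: 2 with equal weights and 0 with a minimum of 100 UMIs, in place of 1. Higher at 7 dpi than in the Uninjured library: 1 in thinned cells and with a minimum of 100 UMIs, in place of 2. The counts lower at 7 dpi, 7 against the Uninjured library and 6 against 3 dpi, stayed within 1.5 times under the alternatives run (5 to 7, and 6). Among the calls lost against the Uninjured library were *Bmp6* without cell filters (-0.88) and in thinned cells (-0.83). *Gdf10* was lost with SD limits on linear counts (-0.90) and outside the chondrocyte gate (-0.90). Thinned cells gave 5 such calls in place of 7, so *Bmp6* was not the only one lost there. Against 3 dpi, thinned cells gave -2.95 for *Bmp2*, -2.30 for *Bmp7*, -2.18 for *Gdf10* and -3.27 for *Gdf6* in place of -2.24, -1.53, -1.36 and -2.41. The class of highest level matched for 6 of 10 members in thinned cells. Genes with few UMIs, *Gdf5* and *Gdf6* above all, are limited by depth.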

Other observations

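A small class of 35 keratinocyte-like cells, with a median of 6 of 6 keratinocyte markers such as *Krt5* and *Krt14*, was seen in the 3 dpi library only. It held 15 UMIs of *Bmp2* and 21 UMIs of *Bmp4*. Monocytes and macrophages held 55 UMIs of *Bmp2* at 1 dpi over 1555 cells, or 4.48 CPM. The same cells had 5.78 CPM of *Bmp1* and 1.71 CPM of *Bmp4*, and the part of mesenchymal RNA in these values was not tested. Unassigned cells were left out of every comparison except the alternative with Leiden classes, in which all 52853 kept cells had a class.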
